A study of Mus musculus with 8 samples.

Results

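Of the 5567 regions formed by merging the APOBEC2 ChIP-seq peaks of differentiating C2C12 cells, 296 lay inside the body of a protein-coding gene, more than 1 kb from every protein-coding gene start or end, and were seen in several libraries. They were selected on called peaks. A region had to hold a peak of at least 2 libraries, including a 34 h library, and regions in all 6 libraries, or in all 3 of 34 h and none of 14 h, were dropped. These 296 made up 5.32% of all merged regions and fell within 287 host genes, 1.31% of the 21887 protein-coding genes. Presence of a peak, reproducibility and distance from gene boundaries are therefore properties of the choice and are described without a test.

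C2C12 myoblasts, an established mouse line, stop dividing and form multinucleate myotubes in low serum. Differentiation was induced in medium with 2% horse serum, and chromatin was immunoprecipitated (IP) with a polyclonal antibody against APOBEC2 raised in rabbit. Both groups were the same cell line in the same medium, and differed in the time after induction, 14 h or 34 h, with 3 IP libraries and 1 input library each. The sample titles give 14 h, whereas the growth protocol names harvests at 24 or 34 h, so the earlier time is uncertain. The names of the deposited peak lists carry a GFPsh tag that the labels do not explain. Nothing in the labels says that replicates came from separate cultures, so the spread between libraries may be technical. No library with a control antibody or from cells without APOBEC2 was used here.

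APOBEC2 is a member of the AID/APOBEC family of cytidine deaminases that is made mainly in skeletal muscle and heart. A ChIP-seq peak marks a stretch of DNA that is over-represented in the immunoprecipitated chromatin and does not tell direct contact from association through other proteins. Many genes have more than one transcription start. An internal start lies inside the longest annotated span of its gene and can serve a shorter transcript, and in mammals starts with many CpG dinucleotides often carry GC boxes, the letters bound by SP and KLF factors.

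Of 284 members on chromosomes with start sequences, 79 (27.8%, exact Clopper-Pearson 95% interval 22.7 to 33.4%) overlapped a start window listed in RefSeq (GRCm38.p6), a stretch from 250 bases before a start to 50 after it. A stretch of 331 bp, the median width of a member, placed anywhere in the same inside-gene sequence would touch such a window at 0.386% of positions. These positions were not matched to the members in distance from a boundary. The median distance was 4943 bp for members at a listed start and 23656 bp for those away from one. The other 12 members lay on a chromosome whose starts are not used here. The starts of 9 genes are printed here because the values that follow turn on them. The first 6 are the members seen in 5 libraries whose median summit lay within 100 bp of a listed start of the host itself. Phip had the highest mean fold at 34 h, and Nav2 was the member at a listed start that lay farthest from any gene boundary. Runx1, whose use of a distal and a proximal promoter is textbook knowledge, was picked after its values were seen.

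Each line gives 150 bases 5′ to 3′ on the gene's strand, 120 before the start and 30 from the start on. Capitals mark 4 kinds of letters on either strand. The GC box is GGGCGG. The CCAAT box is spelled by its name. E2F sites were searched with the letters TTCCCGC, and also with the letters TTGGCGC. The cell cycle homology region, abbreviated CHR, was searched with the letters TTTGAA.
Dek start, chr13:47106192-47106341, minus strand: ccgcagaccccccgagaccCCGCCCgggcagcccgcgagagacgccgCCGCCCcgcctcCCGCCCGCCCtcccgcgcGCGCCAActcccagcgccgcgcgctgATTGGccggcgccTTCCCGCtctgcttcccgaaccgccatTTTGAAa
Pdss1 start, chr2:22895402-22895551, plus strand: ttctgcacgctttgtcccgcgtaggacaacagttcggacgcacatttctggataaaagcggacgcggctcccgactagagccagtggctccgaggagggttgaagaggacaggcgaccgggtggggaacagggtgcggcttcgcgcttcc
Clasp2 start, chr9:113741353-113741502, plus strand: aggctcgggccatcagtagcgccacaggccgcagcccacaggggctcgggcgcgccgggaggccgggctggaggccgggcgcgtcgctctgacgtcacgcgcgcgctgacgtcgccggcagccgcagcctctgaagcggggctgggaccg
Cenpj start, chr14:56571817-56571966, minus strand: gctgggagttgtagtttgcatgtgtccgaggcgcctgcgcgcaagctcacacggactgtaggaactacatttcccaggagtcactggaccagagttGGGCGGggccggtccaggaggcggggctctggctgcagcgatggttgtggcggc
Nsun6 start, chr2:15049283-15049432, minus strand: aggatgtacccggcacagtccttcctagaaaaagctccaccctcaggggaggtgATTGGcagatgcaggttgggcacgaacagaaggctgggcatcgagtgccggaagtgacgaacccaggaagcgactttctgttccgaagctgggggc
Pom121 start, chr5:135394517-135394666, minus strand: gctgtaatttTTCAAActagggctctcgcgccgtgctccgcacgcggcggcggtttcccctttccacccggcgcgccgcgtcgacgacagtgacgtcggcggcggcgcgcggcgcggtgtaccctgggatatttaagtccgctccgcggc
Phip start, chr9:82975460-82975609, minus strand: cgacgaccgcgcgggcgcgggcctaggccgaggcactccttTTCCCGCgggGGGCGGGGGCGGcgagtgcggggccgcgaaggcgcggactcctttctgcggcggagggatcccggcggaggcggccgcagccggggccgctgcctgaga
Nav2 start, chr7:49246069-49246218, plus strand: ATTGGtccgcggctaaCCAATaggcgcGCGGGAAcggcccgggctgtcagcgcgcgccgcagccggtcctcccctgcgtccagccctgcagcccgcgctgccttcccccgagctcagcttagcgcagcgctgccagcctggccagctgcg
Runx1 start, chr16:92697300-92697449, minus strand: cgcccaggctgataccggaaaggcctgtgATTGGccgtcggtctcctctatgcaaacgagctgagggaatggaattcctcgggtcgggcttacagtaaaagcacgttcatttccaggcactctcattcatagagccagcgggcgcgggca

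The printed stretches differed in what they held. Dek carried 4 GC box matches, 1 CCAAT match, 2 E2F matches and 1 CHR match. Phip had 2 GC box matches and 1 E2F match, and Nav2 had 2 CCAAT matches and 1 E2F match. Single matches were found for Cenpj (a GC box), Nsun6 and Runx1 (a CCAAT box) and Pom121 (a CHR), and Clasp2 and Pdss1 had 0 of these letters. A match describes the letters and not a bound site.

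Over the whole 300-base windows, the 76 listed starts of hosts under members had a median GC content of 60.5%, against 56.3% for the 21263 listed protein-coding starts. A ratio of observed to expected CpG of at least 0.6 was reached by 89.5% of them, against 47.7% of all protein-coding starts. For the 3580 protein-coding starts that also lay more than 1 kb from every boundary but had no region of any library, it was reached by 31.0%. The windows under members thus resembled in composition those under regions at gene boundaries that met the same library rule, of which 92.6% reached that ratio. The GC box letters stood in 61.8% of the members' windows, 46.2% of all and 75.7% of those under boundary regions. In the same order the CCAAT letters stood in 55.3%, 38.2% and 56.4%, and the ETS letters CCGGAAG in 19.7%, 11.6% and 22.9%. In the 3580 windows with no region, GC box, CCAAT and ETS letters stood in 36.3%, 33.5% and 6.20%. E2F letters stood in 14.5% of the members' windows, 8.69% of all and 25.1% of those under boundary regions. The share was 25% for members with a 14 h peak, or 9 of 36 windows, and 5% for those without, or 2 of 40. CHR letters (11.8% against 16.0%), the NRF1 letters GCGCATG (3.95% against 4.80%) and the CAGCTG letters read by MyoD-type factors (10.5% against 15.6%) were not above the share of all starts. Of all letters searched, E2F differed most by 14 h peak, on few windows and without a test. With and without a 14 h peak, GC box letters stood in 63.9% and 60%, and CCAAT letters in 61.1% and 50%. The same shares were 19.4% and 20% for ETS, 11.1% and 12.5% for CHR, 2.78% and 5% for NRF1, and 13.9% and 7.5% for CAGCTG. GC-rich windows hold GC-rich letters more often, and the part of base composition in these shares was not tested.

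Summits at listed starts lay near them, which the overlap that defines these members largely sets. The median summit of a member at a listed start lay within 100 bp of the start in 59 of 79 members and within 250 bp in 74. The median offset was -29 bp, upstream of the start, with a range from -465 to 262 bp. In 76 members the listed start was that of the host, and in 36 of these it was the only start listed for the host, so that the annotated span of the gene reached more than 1 kb beyond it. Cenpj, Dek, Pdss1, Pom121, Phip, Rfc1 and Fancc were among these 36. The other 40 were hosts with 2 or more listed starts, such as Nav2, Runx1, Clasp2, Nsun6, Kdm2b, Ltbp1 and Dab2.

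The remaining 3 members touched only the start of a long non-coding RNA gene inside the host. These were Dnm3os, which carries the microRNA gene Mir199a-2 and lies in the dynamin gene Dnm3, Gm12915 in Inpp5b, and 1700028E10Rik in Stard13. At Dnm3os the summit lay -37 bp from the start, and the fold was 5.80 and 4.68 in 34 h replicates 1 and 2. In 4 members, in Edem1, Hsf2, Cipc and 1110004F10Rik, start windows of both strands fell in the region. Most internal starts had no region. Of 3881 protein-coding starts more than 1 kb from a boundary, 129 (3.32%) lay in a region of at least 2 libraries including a 34 h library, and 87 (2.24%) in a member. Of 17382 starts within 1 kb of a boundary, 1453 (8.36%) lay in such a region.

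**Figure D1:**
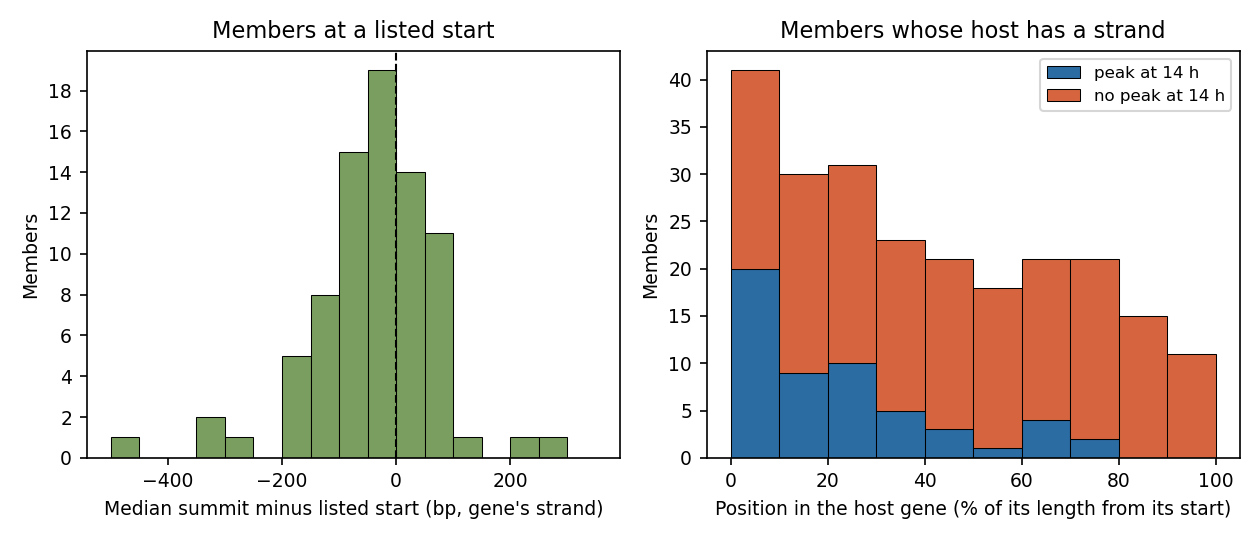
Left, number of members at a listed start by the distance of their median summit from it, in bp on the gene's strand; 59 of 79 lie within 100 bp of the dashed line at 0. Right, number of members by position in the host gene, in percent of its length from its start, for the 232 members whose host has a known strand, split by whether a 14 h library had a peak; the 54 with a 14 h peak crowd toward the start (median 17.2%) and the 178 without spread along the gene (median 45.4%).

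The share at a listed start was higher in every 14 h library than in every 34 h library. Members with a peak in 14 h replicates 1, 2 and 3 overlapped a listed start in 55.2%, 61.1% and 66.7% of cases, and those with a peak in 34 h replicates 1, 2 and 3 in 26.4%, 27.5% and 25.7%. The 14 h libraries averaged 61.0% ± 5.75 and the 34 h libraries 26.5% ± 0.902 (SD over 3 libraries). This is a description with no test, since the rule used the presence of peaks. The libraries share regions, and a 14 h peak counted only where a 34 h peak was also present.

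The boundary regions that met the same library rule gave 75.4% ± 0.710 at 14 h and 78.8% ± 0.977 at 34 h. Boundary regions lie near gene starts by the rule, so their higher share is built in. Counted by region, 37 of 63 members with a 14 h peak (58.7%, interval 45.6 to 71.0%) and 42 of 221 without it (19.0%, interval 14.1 to 24.8%) lay at a listed start. Members with and without a 14 h peak also differed in median distance to a boundary, 3437 and 23724 bp. The part of distance in this split was not tested. By number of libraries the share was 20.9% for members in 2 libraries, 59.1% in 3, 50.0% in 4 and 71.4% in 5. By the rule every member in 3 or more libraries has a 14 h peak, so this series largely repeats the split by 14 h peak. Among members in 2 libraries the share was 53.8% (7 of 13) with a 14 h peak and 19.0% (42 of 221) without. The 21 inside-gene regions of all 6 libraries, which the rule leaves out, had 66.7%. The 901 inside-gene regions of a single library had 17.2%, and the 787 seen in 34 h replicate 2 alone had 15.0%. Intervals cover counting error over regions, not the spread between libraries.

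**Figure D2:**
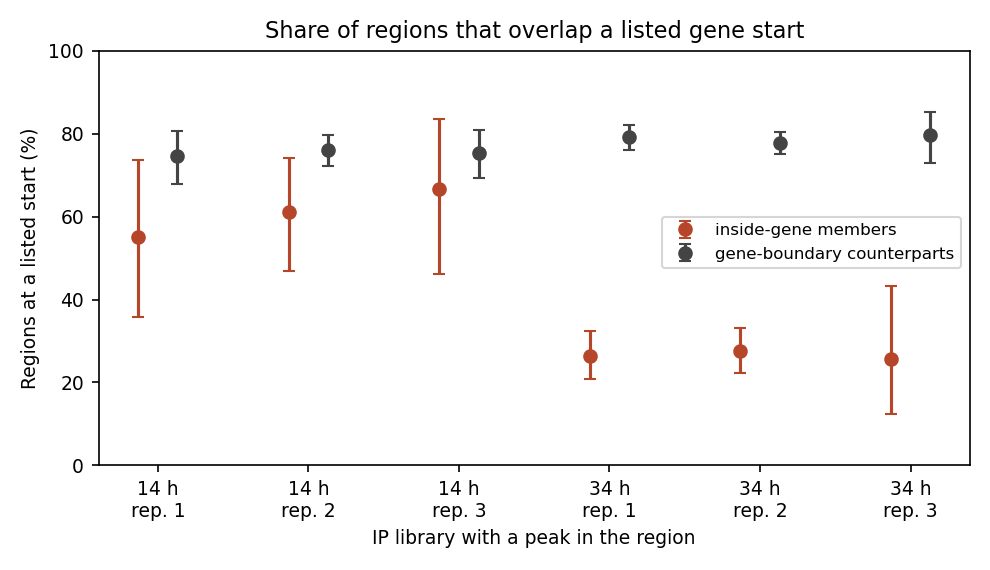
Share of regions overlapping a listed gene start, in percent, for the members and for the gene-boundary regions that met the same library rule, by the IP library with a peak; bars are exact 95% intervals over regions. The members of the 3 libraries of 14 h sit between 55.2% and 66.7%, those of 34 h between 25.7% and 27.5%, and boundary regions between 74.6% and 79.6% throughout.

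Library membership was uneven. A peak was present at 32, 58 and 29 members in 14 h replicates 1, 2 and 3, and at 244, 292 and 36 in 34 h replicates 1, 2 and 3. Thus 34 h replicate 2, whose list was the longest with 5019 peaks against 765 to 2202 in the others, had a peak at all but 4 members. Those 4 lay in Slc29a1, Tmprss6, Arid1a and Hsf2. No 14 h peak was present in 229 members, of which 209 rested on 34 h replicates 1 and 2 and 20 on replicates 2 and 3. With every list cut to the 765 peaks of best p, 47 members were left. A library without a peak gives no fold, and is not shown to lack signal.

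Fold enrichment is the authors' own value, written by their peak caller as IP over local background at a summit, on a linear scale. Members had a median fold of 6.42, 7.50 and 6.80 in 14 h replicates 1, 2 and 3, and of 5.65, 6.04 and 5.40 in 34 h replicates 1, 2 and 3. These peaks were modest in size, with median summits of 15 to 22 fragments per library and a lowest of 10. Where 34 h replicates 1 and 2 both had a peak, at 241 members, the median ratio of their folds was 0.964, and replicate 1 was the higher at 106. Summits of the libraries of a member lay close together, with a median spread of 46.5 bp and 100 bp or less in 235 of 296. Members form only where peaks of libraries overlap, and their peaks had median widths of 154 to 292 bp per library. Close summits are thus largely built in.

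Against the 1037 boundary regions of the same library rule, the median log2 fold of members was lower in 5 of 6 libraries and higher in 14 h replicate 2. The mean difference was -0.07 ± 0.06 (SD, n = 6 libraries), with an exact sign-flip permutation p of 0.0625, and 0.25 after Benjamini-Hochberg adjustment over 4 tests. In these tests both sets hold called peaks only, so a shared calling floor can draw their medians together. The libraries also share regions, so the 6 differences are not independent. Peak width differed by -6.75 ± 9.15 bp and summit fragments by -0.5 ± 0.548, and neither passed the adjusted exact permutation test (adjusted p = 0.25 for each). Against 277 regions outside protein-coding genes the log2 difference was 0.27 ± 0.52, with an adjusted exact permutation p of 0.25. It was 1.31 in 14 h replicate 1 and between -0.06 and 0.23 in the other 5 libraries. In that replicate the outside regions stood on a median background of 29.6 fragments, against 1.29 for the members. The gap to boundary regions differed between times by 0.00278 on the log2 scale (34 h minus 14 h, exact permutation p = 1.0). With 3 libraries of each time the smallest possible p is 0.1, so this test could not pass 0.05.

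**Figure D3:**
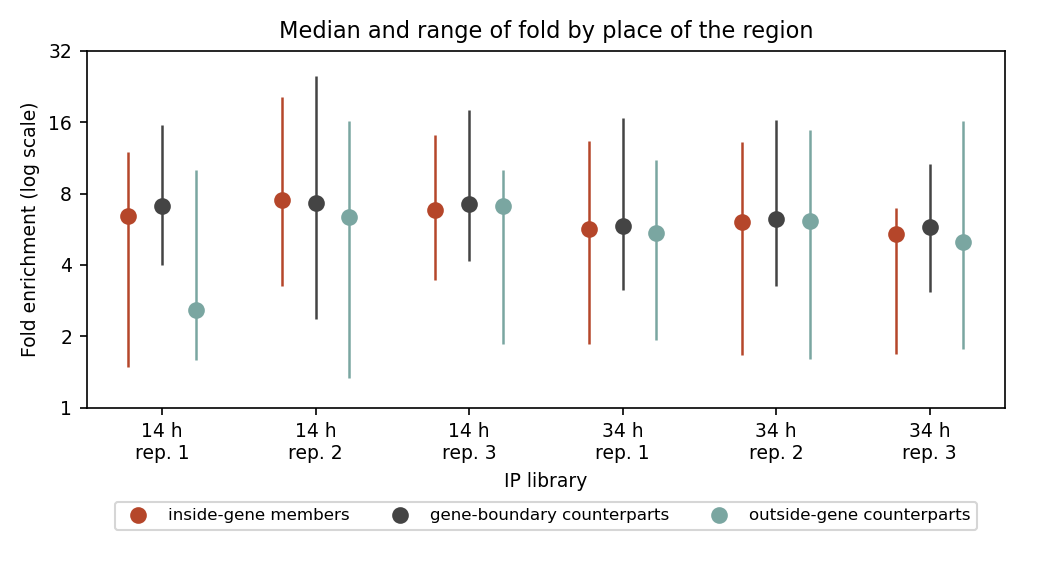
Fold enrichment on a log axis in each IP library for members, gene-boundary regions and regions outside genes that met the same library rule; points are medians and lines run from the lowest to the highest value. Member medians lie between 5.40 and 7.50, close to those of boundary regions in every library, and the outside regions drop to 2.58 in 14 h replicate 1.

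The members of highest mean fold at 34 h were a mix of starts and sites away from them. Phip encodes a substrate receptor of a CUL4 ubiquitin ligase that binds histones, and it held 2 members 774 bp apart. The member at its listed start (chromosome 9, 82975220 to 82975908) had folds of 8.62 and 12.5 in 34 h replicates 1 and 2, and the other (82974195 to 82974446) had 7.67 and 9.23. Neither had a peak in 34 h replicate 3 or at 14 h. Cenpj encodes a protein needed to build centrioles. At its start (chromosome 14, 56571624 to 56572227) folds were 7.07 and 8.24 in 14 h replicates 1 and 2, and 13.4, 13.2 and 4.26 in 34 h replicates 1, 2 and 3. The 34 h values spanned those of 14 h, and their mean was 10.3 ± 5.22.

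Nav2, a neuron navigator gene tied to the cytoskeleton, had its member 286878 bp from the nearest boundary and at a listed start (chromosome 7, 49245941 to 49246281). Its folds were 4.59, 7.14 and 6.02 in 14 h replicates 1, 2 and 3, and 8.96 in 34 h replicate 2, its only 34 h peak. Clasp2 encodes a protein that stabilises microtubule plus ends. Folds there (chromosome 9, 113741288 to 113741713) were 8.71, 9.11 and 7.39 at 14 h and 6.74 and 10.4 in 34 h replicates 1 and 2, so the times overlapped.

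The other leading members lay away from listed starts or on the chromosome without them, and each had peaks only in 34 h replicates 1 and 2. Slc9a4, a sodium-proton exchanger gene, had folds of 9.66 and 10.4. Gpc6, which encodes a heparan sulfate proteoglycan of the cell surface, had 7.56 and 10.7, in a gene of 1054610 bp. Mrtfa, whose product moves to the nucleus with actin assembly and acts with SRF on muscle genes, had 7.62 and 9.95 with summits 8 bp apart. Hip1, an endocytic adaptor gene, had 8.82 and 8.37 with summits 2 bp apart, and Piezo2, a mechanosensitive channel gene, had 7.56 and 9.47. Over all members, sites away from listed starts and sites at them had similar median mean folds at 34 h, 5.92 and 5.81. Both sets hold called peaks only, so a shared calling floor can draw these medians together.

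**Figure D4:**
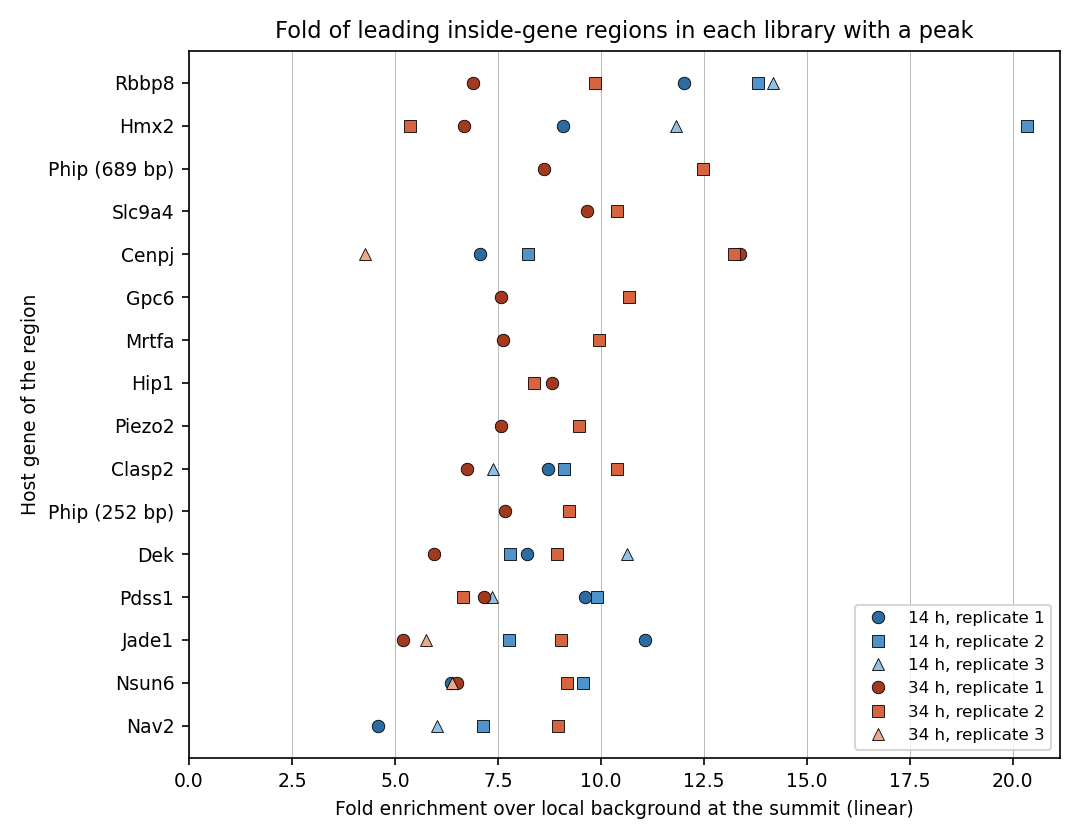
Fold enrichment (linear axis) at the members of highest mean 34 h fold and of highest mean fold among those seen in 5 libraries, named by host gene, with 1 point for each IP library that had a peak. Blue points of 14 h stand right of all red points of 34 h at Rbbp8, Hmx2 and Pdss1, whereas 7 of the rows hold 34 h points only. The median fold of all members was also higher in each 14 h library than in each 34 h library.

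Members in 5 libraries numbered 16, and 10 of the 14 on chromosomes with start sequences lay at a listed start. Rbbp8, whose product starts DNA end resection, had folds of 12.0, 13.8 and 14.2 in 14 h replicates 1, 2 and 3 and 6.89 and 9.85 in 34 h replicates 1 and 2 (chromosome 18, 11657669 to 11658036). Hmx2, a homeobox gene, had 9.09, 20.3 and 11.8 at 14 h and 6.69 and 5.37 at 34 h. In both genes every 14 h value lay above every 34 h value, a description of members picked on their folds. Median folds of all members were also higher in each 14 h library (6.42 to 7.50) than in each 34 h library (5.40 to 6.04). Boundary regions of the same library rule had medians of 7.08 to 7.33 at 14 h and 5.77 to 6.25 at 34 h. The order of times is therefore not particular to these genes, and its share over all members was not counted. Each list has its own background and depth, so folds were not tested between times.

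Among further members of this kind the times overlapped at some and not at others. Dek, a chromatin protein gene often raised in dividing cells, had 8.21, 7.79 and 10.6 at 14 h and 5.95 and 8.93 at 34 h. Pdss1, whose enzyme makes the side chain of coenzyme Q, had 9.62, 9.91 and 7.36 at 14 h and 7.17 and 6.65 at 34 h. Nsun6, a tRNA cytosine methyltransferase gene, had 6.36 and 9.58 in 14 h replicates 1 and 2 and 6.50, 9.17 and 6.38 at 34 h. Dek and Nsun6 had overlapping times, and at Pdss1 all 14 h values stood above both 34 h values. Jade1, a subunit gene of the HBO1 acetyltransferase complex, had 11.1 and 7.76 in 14 h replicates 1 and 2 and 5.20, 9.03 and 5.76 at 34 h, with the region 470 bp from a listed start. Pom121, a nuclear pore membrane protein gene, had 7.13, 11.1 and 8.39 at 14 h and 5.97 and 4.96 at 34 h. Values of the times overlapped at Jade1 and not at Pom121.

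Local background set 4 members apart. Chl1, 2210408I21Rik, Jarid2 and Il31ra stood on 10 or more background fragments in a library, whereas the median of the members' highest background was 2.73. At Chl1 the background reached 156 fragments and the folds were 1.49 in 14 h replicate 1 and 1.85, 1.67 and 1.68 in 34 h replicates 1, 2 and 3. At 2210408I21Rik the background reached 83.2 fragments and folds were 1.88 and 1.66. These 2 members had the lowest folds at 34 h. Jarid2, a cofactor of Polycomb repressive complex PRC2, had 2.85 and 3.27 in 14 h replicates 1 and 2 and 5.26, 5.16 and 4.56 at 34 h, on up to 21.6 background fragments. Of the 30 members in 4 or 5 libraries, 3 belong to this group, and 0 of the 4 lay at a listed start. Without them the share at a listed start was 28.2%.

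The host genes were long. Their median length was 105312 bp, against 17169 bp for all protein-coding genes and 148379 bp when each gene is weighted by its sequence more than 1 kb from its ends. Hosts of members at a listed start had a median of 48729 bp and those of other members 123525 bp. The longest host was Lsamp, a neural cell adhesion gene of 2197426 bp, with folds of 7.03 and 7.26 in 34 h replicates 1 and 2. The member farthest from a boundary lay 503340 bp inside Nrxn3, a synaptic adhesion gene, with folds of 7.77 and 6.05 in 34 h replicates 2 and 3. Distance to the nearest boundary had a median of 16099 bp. It was 3437 bp for members with a 14 h peak and 23724 bp for those without, whose hosts also differed in length, with medians of 47661 and 122075 bp.

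With the host divided into 5 equal stretches from its start to its end, members with a 14 h peak numbered 29, 15, 4, 6 and 0, and members without numbered 42, 39, 35, 36 and 26. For regions of at least 2 libraries, the hosts had boundary regions at a share close to that of all genes. A region of at least 2 libraries including a 34 h library lay within 1 kb of a boundary of 26 of 287 hosts (9.06%, interval 6.00 to 13%), against 8.52% of all protein-coding genes. Among hosts of members at a listed start it was 3 of 79 (3.8%, interval 0.790 to 10.7%), and among hosts of other members 22 of 199 (11.1%, interval 7.06 to 16.3%). Those intervals overlap.

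The 1 kb distance cut through similar regions. The nearest members inside it lay in Jund at 1040 bp, Pdss1 at 1056 bp and Sin3a at 1086 bp from a boundary, and the nearest eligible regions left out lay in Aebp2 at 958 bp, Tbx3 at 998 bp and Bcl2l11 at 1000 bp. Mean folds at 34 h were 4.85, 6.91 and 6.90 for the former and 5.81, 5.22 and 6.77 for the latter. Jund encodes an AP-1 subunit and Sin3a a corepressor scaffold. Values just inside and just outside the distance overlapped.

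Hosts were also counted in 13 lists of genes, which together held 30 of the hosts, to be read against the 1.31% of all genes that hosted a member. All protein-coding genes had a median length of 17169 bp and the hosts 105312 bp. The part of gene length in these counts was not tested. Genes of the cell cycle and mitosis list had a boundary region in 61 of 73 cases, against 8.52% of all genes, and 0 of 73 hosted a member, a count that does not stand apart from the background of hosts. The histone list had 30 of 51 with a boundary region and 0 of 51 as hosts, but its genes have a median length of 492 bp, so the distance rule itself leaves them almost no place for a member. In DNA replication and repair, of median gene length 28310 bp, 67 of 89 had a boundary region and 3 hosted a member. Rfc1, the large subunit gene of the clamp loader, had folds of 6.72 in 14 h replicate 2 and 7.67 in 34 h replicate 2 at its listed start. Fancc, of the Fanconi anaemia core complex, had 7.40 and 11.6 in 14 h replicates 1 and 2 and 5.26 and 5.76 in 34 h replicates 2 and 3, also at its only listed start.

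In the centrosome and cilium list, of median gene length 54132 bp, 29 of 55 genes had a boundary region and 3 hosted a member. Besides Cenpj these were Haus1, of the augmin complex that nucleates microtubules in the spindle, and Bbs9, of the BBSome that carries cilium cargo. Haus1 had folds of 6.01, 7.14 and 8.16 in 14 h replicates 1, 2 and 3 and 7.88 and 7.25 in 34 h replicates 1 and 2, which overlapped. Bbs9 had 4.99 and 6.85 in 34 h replicates 1 and 2, at 122303 bp from a boundary.

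Of 69 sarcomere and contraction genes 3 (4.35%) hosted a member and 3 had a boundary region. The list had a median gene length of 23943 bp, whereas its hosts were 75768 to 586052 bp long. Myom1 and Myom2 encode myomesins, which cross-link thick filaments at the M-band. Myom1 had folds of 6.06 and 6.03 and Myom2 of 5.14 and 6.17 in 34 h replicates 1 and 2. Ryr3, a calcium release channel gene, had 5.35 and 6.86 in the same libraries. None of the 3 lay at a listed start or had a 14 h peak.

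Of 33 genes for myogenic transcription factors and their partners, 4 (12.1%) hosted a member and 5 had a boundary region. The list had a median gene length of 25519 bp, whereas its 4 hosts were 178456 to 344539 bp long. Tcf4 and Tcf12 encode E proteins, which pair with MyoD. Tcf12 had folds of 7.35 and 6.49 and Tcf4 of 5.13 and 5.50 in 34 h replicates 1 and 2. Runx1 had 5.56 and 8.32 in those libraries, in a region of 832 bp whose median summit lay -60 bp from the listed start printed above (chromosome 16, 92696781 to 92697612). Mrtfa was the fourth. All 4 had peaks at 34 h only.

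Chromatin regulators had 6 hosts among 78 genes (7.69%), with 18 having a boundary region and a median gene length of 77783.5 bp. Kdm2b encodes a demethylase that binds CpG islands and had folds of 5.00 and 5.66 in 34 h replicates 1 and 2 at a listed start. Dnmt1, the maintenance DNA methyltransferase gene, had 7.64 in 14 h replicate 2 and 6.42 in 34 h replicate 2, also at a listed start. Arid1a, a subunit gene of the BAF remodelling complex, held 2 members 2461 bp apart. Its first had folds of 7.73 and 7.13 in 14 h replicates 1 and 2 and 5.02 in 34 h replicate 2, and its second 6.73 in 14 h replicate 2 and 5.14 in 34 h replicate 1. The acetyltransferase genes Kat2b and Kat6b had 34 h folds between 4.78 and 6.39, and Jarid2 is described above.

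Cytoskeleton and adhesion genes had 6 hosts among 56 (10.7%), and 5 of the 56 had a boundary region. This list had the longest genes, with a median of 122193 bp. Tln2 encodes a talin, which links integrins to actin, and held 2 members with 34 h folds between 4.50 and 5.38. Dst, Ank2, Daam2 and Tns1, genes for linkers of the cytoskeleton and for a formin, had 34 h folds between 3.93 and 6.45 in replicates 1 and 2. Apart from Clasp2, none of the 6 lay at a listed start.

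In the TGF-beta, BMP, Notch and Wnt list 3 of 70 genes hosted a member and 4 had a boundary region. Median gene lengths were 61369.5 bp in this list and 71241 bp in the matrix list. Ltbp1, which holds latent TGF-beta in the matrix, had folds of 5.17 and 6.72 in 34 h replicates 1 and 2 at a listed start 173301 bp from a boundary. Smad3, a TGF-beta signal transducer gene, had 5.47 and 5.41, and Notch2, a receptor gene, had 5.68 and 6.72. The matrix list gave 1 of 44, Lama2, a laminin chain gene of the muscle basement membrane, with 5.67 and 5.50. RNA processing gave 1 of 43, Rbfox2, a splicing factor gene with 2 members and 34 h folds between 5.30 and 6.61. The haematopoietic and neural lists had 0 of 30 hosts each, which at the background share and with median gene lengths of 13944.5 and 10164 bp says nothing about these lineages.

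Hosts with 2 or more members numbered 13. Besides Phip, Rbfox2, Tln2 and Arid1a they included Cpq, Adam12, Lhfpl2, Stard13, Tiam2, Rbm20, Ncam1 and Dab2. In 34 h replicates 1 and 2, Cpq, a carboxypeptidase gene, had folds of 8.99 and 5.98 at a member and 5.16 and 5.05 at the other. Lhfpl2 had 4.52 and 9.86 and then 5.65 and 7.55, and Tiam2, a Rac exchange factor gene, had 6.62 and 6.26 and then 6.69 and 5.58. None of these 6 members had a 14 h peak or lay at a listed start. Adam12, a metalloprotease gene linked to myoblast fusion, had 7.49 and 7.34 at a member and 4.83 and 4.89 at the other, in 34 h replicates 1 and 2. Stard13 had a member in 5 libraries at the lncRNA start 1700028E10Rik, with folds of 6.06, 8.55 and 6.14 at 14 h and 6.03 and 7.97 at 34 h. Its second member had 6.78 and 6.90 at 34 h alone. Ncam1, a cell adhesion gene of muscle and nerve, had a member with folds of 8.72 and 6.37 in 14 h replicates 2 and 3 and 4.52 in 34 h replicate 2, and another with 5.65 and 6.44 in 34 h replicates 1 and 2. Dab2, an endocytic adaptor gene, had 1 of its 2 members at a listed start, with 5.70 in 14 h replicate 2 and 4.60 and 5.83 in 34 h replicates 1 and 2. Rbm20, whose product regulates titin splicing, had 5.14 and 6.97 in 34 h replicates 1 and 2 at a member and 6.00 and 4.64 in replicates 2 and 3 at the other.

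An end of a non-coding gene lay within 1 kb of 20 members, most often a long non-coding RNA gene (14 genes). The same count was not made over all merged regions, so it does not set the members apart. The 9 such members that were away from listed starts included Trim7, near 2 tRNA genes, with folds of 6.16 and 7.71 in 34 h replicates 1 and 2. They also included Tmem123, near Mir5618, with 5.95 and 8.85, and Tex14, near the small nuclear RNA gene Rnu1a1, with 8.44 in 14 h replicate 2 and 3.87 in 34 h replicate 2. A member over an overlapping gene cannot be assigned to its host alone, and 4 members lay over 2 or more protein-coding genes.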

How the data were processed

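ChIP-seq was run on 6 IP and 2 input libraries. The authors used Subread for alignment and MACS2 for peak calling on mm10, per the submitters' processing notes, which give no version or threshold. Going by the names of the deposited lists, the authors called each library on its own with the input of that time. The deposited peak values are a linear fold ratio at the summit, −log10 of the p-value, −log10 of the q-value and an integer score. The inputs have no list of their own here. Lists give no read totals; the fragments at a summit and its background were solved from fold and p for 100% of peaks, to within 0.001 in −log10 p.

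Peaks on chromosomes 1 to 19, X and Y were merged at an overlap of at least 1 bp. Where a library had several peaks in a region the highest fold was used. Genes, starts and sequences came from RefSeq tables on GRCm38.p6, whose listed starts cover 79.9% of protein-coding genes. With no genome used here, exons and introns were not told apart. Motif letters were searched on both strands.

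Differences within libraries were tested with exact two-sided sign-flip permutations (smallest p 0.03125 with 6 libraries), adjusted by Benjamini-Hochberg over 4 tests at 0.05. Times were compared by exact permutation (smallest p 0.1). The code was tested on simulated data. Members, gene lists and tests were chosen with earlier results of these data known. Genes named were the 10 members of highest mean 34 h fold, members in 5 libraries (the 8 of highest mean fold), hosts with 2 or more members, hosts in a list, the 3 regions nearest either side of 1 kb, the deepest member and the longest host. Pom121, Runx1, Nav2 as a printed start, and genes given for counts of 5 or fewer were named after their values were seen. A host gene that this rule names is not reported here. Alternatives tried were peaks with −log10 q of 5 or more, lists of equal length, 50% reciprocal overlap, summits in place of regions, other windows and boundaries, means, and each library left out. Python 3.11.15, pandas 2.3.3, numpy 2.4.6, scipy 1.17.1 and matplotlib 3.10.9 were used.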

Additional observations from a re-analysis of the deposited data

How the results depend on the processing

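The number of members stayed between 217 and 339 under a −log10 q of at least 5, reciprocal overlap, summits and other windows or boundaries, and was 47 with lists of equal length. Leaving out a library gave 42 to 291 members. The low counts were 64, 42 and 57 without 34 h replicates 1, 2 and 3. The 209 members that rest on 34 h replicates 1 and 2 fall to 1 library without either of these, and without replicate 3 the rule drops them as regions of every 34 h library and none of 14 h. The share at a listed start was 34.1% with lists of equal length, 18.8% with a 5 kb window, 34.9% with start windows widened by 1000 bp, and 26.5 to 65.0% with a library left out (58.3%, 65.0% and 54.5% without 34 h replicates 1, 2 and 3). It was 27.6%, 26.5% and 27.4% without 14 h replicates 1, 2 and 3.

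The 34 h minus 14 h difference of the gap to boundary regions was 0.206 with lists of equal length (exact permutation p = 0.1, the smallest possible) and changed sign in several settings: -0.025 at a −log10 q of at least 5, -0.012 with reciprocal overlap, -0.0088 with summits, -0.048 with boundaries of all genes and -0.039 for members at listed starts, with -0.159 to 0.029 when a library was left out. With a replicate block it was 0.00278 (exact sign-flip p = 1.0 over 3 pairs, smallest 0.25). With means in place of medians, differences from boundary regions became -0.11 in log2 fold and -6.65 bp in width, and from outside regions 0.34, each with an adjusted exact permutation p of 0.0417, and no other setting passed 0.05. The log2 difference from outside regions ran from 0.034 without 14 h replicate 3 to 1.12 with reciprocal overlap, and was 0.907 with lists of equal length and 0.081 without 14 h replicate 1. That from boundary regions ran from -0.01 for members at listed starts to -0.14 with lists of equal length, and was -0.015 without 14 h replicate 1. The difference from boundary regions in summit fragments turned to 2.79 with means in place of medians. The cause was not tested. A boundary region of any library lay at 21.3% of hosts and 15.8% of all protein-coding genes. Median summits of 15 to 22 fragments limit the precision of every fold, and a missing peak may be a site below the threshold.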
